A study of Mus musculus with 8 samples.

Results

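The genes described here are the 10 that set the gate between rest and the next round of division in G1. They are compared between freshly sorted stromal cells and separate embryonic fibroblasts that had been grown in culture. They are the D cyclin genes Ccnd1, Ccnd2 and Ccnd3, the cyclin-dependent kinase (CDK) inhibitor genes Cdkn1a, Cdkn1b, Cdkn2a, Cdkn2b and Cdkn2c, the tumour suppressor gene Trp53 and Mdm2. They were taken by gene symbol, with no threshold on a measured value but with earlier results of these data known, and all 10 were found among the 22558 genes of the deposited fragment table, which writes symbols in lower case (ccnd1, ccnd2, ccnd3, cdkn1a, cdkn1b, cdkn2a, cdkn2b, cdkn2c, trp53 and mdm2).

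A D cyclin binds CDK4 or CDK6, and the complex phosphorylates the retinoblastoma protein, which then releases E2F transcription factors and lets a cell enter S phase. A pair of inhibitor families holds this step back: the INK4 proteins p16Ink4a, p15 and p18, from Cdkn2a, Cdkn2b and Cdkn2c, bind CDK4 and CDK6 themselves, and the Cip/Kip proteins p21 and p27, from Cdkn1a and Cdkn1b, bind cyclin and kinase together. Cdkn2a also encodes p19Arf from an upstream start, which blocks the ubiquitin ligase MDM2 and so stabilises p53, and p53 in turn switches on Cdkn1a and Mdm2. Mouse embryonic fibroblasts are known to accumulate the Cdkn2a and Cdkn2b products as they are passaged, whereas most fibroblasts in tissue rest outside the cycle.

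RNA was sequenced from 8 mouse libraries, 2 for each of 4 groups. Adipose, muscle and pancreas below stand for cells sorted by flow cytometry for surface fibroblast activation protein (FAP), a serine protease of stromal cells, after visceral adipose tissue, skeletal muscle or pancreas had been dissociated; the labels call the pancreas cells stellate cells. MEF stands for FAP- mouse embryonic cells that had been sorted, kept in culture for 3 passages and sorted again. Age, strain and genotype of the mice and the number of animals behind a library are not stated in the labels. The labels name the 2 libraries of a group biological replicates, without saying whether they came from separate animals or cultures, so the p-values measure the spread between these libraries, which may be technical in part. A difference between a tissue and MEF is at the same time one between fresh and cultured, tissue and embryonic, and FAP+ and FAP- cells, and these cannot be told apart. In bulk RNA, fewer cells that express a gene and less of its RNA per cell cannot be told apart either.

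Levels are fragments scaled to library size by edgeR's TMM method (CPM), or, where genes are set beside each other, the authors' bias-adjusted FPKM, which is per length. Libraries held 15516319 to 27759399 estimated fragments, and 1 library stood apart. Adipose library 1 had a TMM factor of 0.516, against 0.889 to 1.31 in the other 7, and its fragments followed the whole reads recovered from the authors' second table with r = 0.850 across genes, against 0.942 to 0.962. The ratio of fragment CPM to read CPM in this library lay outside the range of the other libraries for 10 of 10 members, so adipose results are also given without it, for list genes as counts and for the values that moved most. Fap, the sort marker, averaged 31.2 ± 4.54 CPM in adipose cells, 97.9 ± 12.8 CPM in muscle cells and 60.5 ± 7.23 CPM in pancreas cells, and 1.44 ± 1.31 CPM in MEF (SD, n = 2 each), higher in every sorted tissue.

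**Figure D1:**
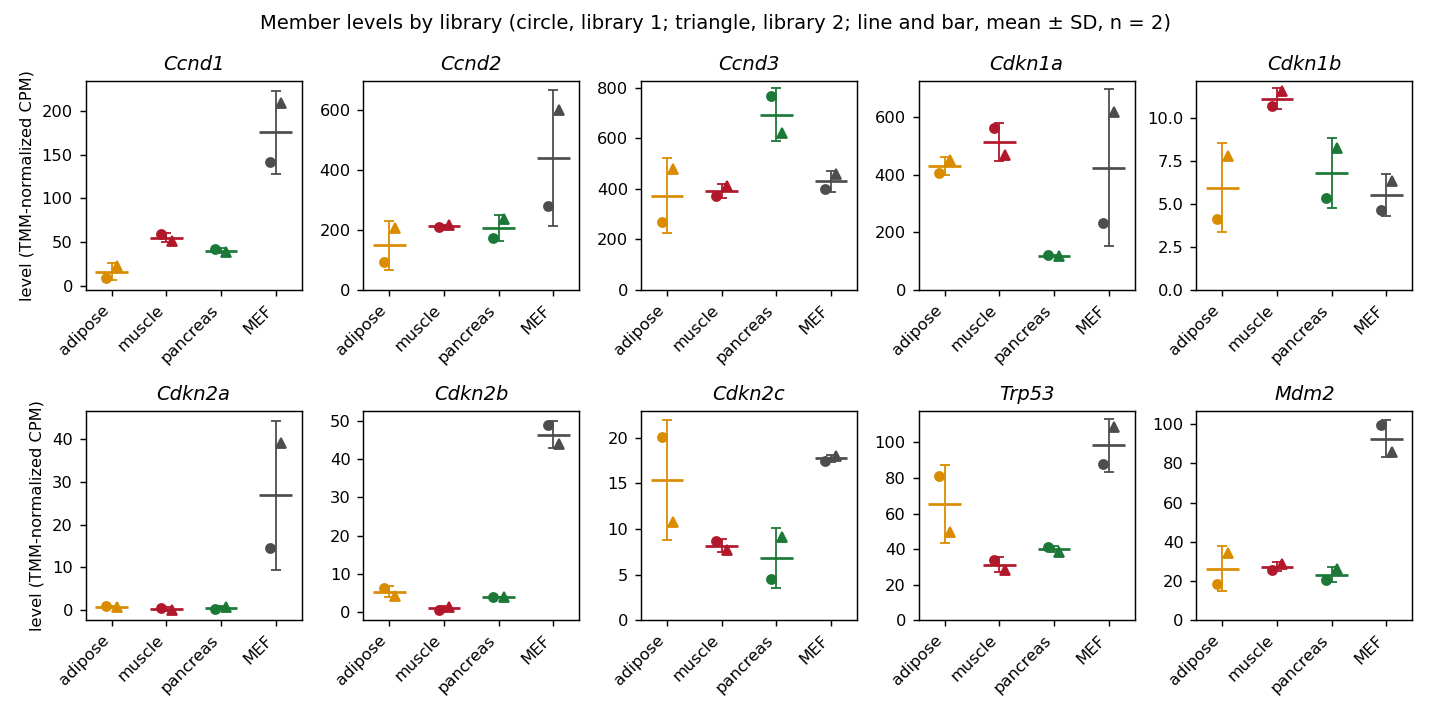
Level of each of the 10 genes in normalized CPM (vertical axis, with 0 shown, scales differ between panels) in the 2 libraries of adipose, muscle, pancreas and MEF; circles are library 1, triangles library 2, lines and bars the mean ± SD. For Ccnd1, Ccnd2, Cdkn2a, Cdkn2b, Trp53 and Mdm2 the 6 FAP+ libraries lie below both MEF libraries, and Cdkn1a is lowest in pancreas, at 121 and 116 CPM.

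The promoters below are shown as background, and no level here was measured by start site. Cdkn2a and Cdkn2b, neighbours on chromosome 4, were the members furthest below MEF in muscle and pancreas (in adipose Ccnd1 lay between them). Cdkn1a is the textbook target of p53. Each promoter window is 300 bases, 250 before to 50 after an annotated start, from RefSeq on build GRCm38.p6. The authors' processing notes name mm9. Windows for 8 of the 10 genes were matched by symbol. Capitals mark the p53 site in the first and GC boxes (GGGCGG, either strand) and an E2F motif (TTT, a G or C at each of the next 2 positions, CGC, either strand) in the other 3; no capitals of 1 motif overlap another. They are Cdkn1a (chr17:29090729-29091028, plus strand), Cdkn2a at its upstream start, which gives p19Arf (chr4:89294570-89294869, minus strand), Cdkn2a at its downstream start, which gives p16Ink4a (chr4:89282143-89282442, minus strand), and Cdkn2b (chr4:89310983-89311282, minus strand).
Cdkn1a: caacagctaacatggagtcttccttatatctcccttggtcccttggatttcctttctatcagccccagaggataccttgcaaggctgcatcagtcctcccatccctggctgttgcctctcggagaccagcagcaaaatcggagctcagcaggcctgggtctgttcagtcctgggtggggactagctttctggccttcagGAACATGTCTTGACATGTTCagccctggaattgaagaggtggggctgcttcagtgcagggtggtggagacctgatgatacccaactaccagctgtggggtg
Cdkn2a, p19Arf start: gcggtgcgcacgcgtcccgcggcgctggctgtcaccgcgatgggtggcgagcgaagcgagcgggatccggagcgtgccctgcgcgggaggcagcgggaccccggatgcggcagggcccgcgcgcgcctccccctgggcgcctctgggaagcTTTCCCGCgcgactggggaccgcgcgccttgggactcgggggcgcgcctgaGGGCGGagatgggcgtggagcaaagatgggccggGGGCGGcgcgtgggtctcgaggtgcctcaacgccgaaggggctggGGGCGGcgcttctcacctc
Cdkn2a, p16Ink4a start: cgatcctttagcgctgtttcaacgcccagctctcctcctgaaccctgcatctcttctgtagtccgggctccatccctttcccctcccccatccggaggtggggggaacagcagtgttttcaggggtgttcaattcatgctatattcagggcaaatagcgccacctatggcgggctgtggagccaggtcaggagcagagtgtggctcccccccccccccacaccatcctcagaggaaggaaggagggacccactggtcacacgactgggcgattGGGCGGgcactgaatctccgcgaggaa
Cdkn2b: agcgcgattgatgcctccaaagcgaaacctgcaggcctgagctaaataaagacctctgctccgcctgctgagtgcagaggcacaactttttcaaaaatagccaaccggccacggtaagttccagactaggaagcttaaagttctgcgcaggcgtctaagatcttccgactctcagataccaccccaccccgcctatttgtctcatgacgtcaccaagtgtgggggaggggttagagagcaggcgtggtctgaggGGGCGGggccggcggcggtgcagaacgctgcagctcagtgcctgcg
RefSeq lists another Cdkn1a start downstream (chr17:29093519-29093818), whose window holds 2 GC boxes and 0 p53 sites, and the Mdm2 window also holds 0 p53 sites. Of the Cdkn1a windows, only the one with the p53 site is printed here. That site has 2 adjoining half-sites with 1 mismatch to the consensus. It ends 31 bases before the upstream start, not the downstream one. Among 32851 promoter windows of the same length, 22 hold such a match (0.07%). The p19Arf window holds 1 E2F motif and 3 GC boxes, and the p16Ink4a and Cdkn2b windows hold 1 GC box each; 2.26% of all windows hold the E2F motif and 35.66% a GC box. A match describes letters and shows no binding. The tables count Cdkn2a as 1 gene, so p16Ink4a and p19Arf transcripts cannot be told apart.

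No member was higher than MEF in any tissue by the test, and most of the changes were downward. The test was edgeR's quasi-likelihood test with Benjamini-Hochberg adjustment over 14847 genes in each of 6 comparisons, called below 0.05, and all 10 members passed its filter on low values. In adipose 5 members were lower (Ccnd1, Ccnd2, Cdkn2a, Cdkn2b and Mdm2), where 23.2% of all genes were called lower and 26.9% higher (50.1% in all). In muscle 5 were lower (Ccnd1, Cdkn2a, Cdkn2b, Trp53 and Mdm2), against 20.0% of all genes lower and 23.7% higher (43.8% in all). In pancreas 7 were lower (Ccnd1, Cdkn1a, Cdkn2a, Cdkn2b, Cdkn2c, Trp53 and Mdm2), against 19.4% of all genes lower and 23.1% higher (42.5% in all). The median log2 fold change of the 10 was -1.08 in adipose, -1.39 in muscle and -1.61 in pancreas, beside 0.05, 0.03 and 0.02 over all genes tested. Of all genes called, 53.6% were higher in adipose, 54.2% in muscle and 54.4% in pancreas, but 19.3% to 24.4%, 27.3% to 39.5% and 31.6% to 44.6% with limma on the authors' FPKM. Ccnd1, Cdkn2a, Cdkn2b and Mdm2 were lower in all 3 tissues, as were 13.5% of all genes, and for 6 members all FAP+ libraries lay below both MEF libraries, as for 28.0% of all genes. For comparison, 16.5% of all genes and 0 members were higher in all 3 tissues, and 28.2% of all genes and 0 members had all FAP+ libraries above both MEF libraries. The 3 comparisons share the MEF libraries and so are not independent of each other.

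**Figure D2:**
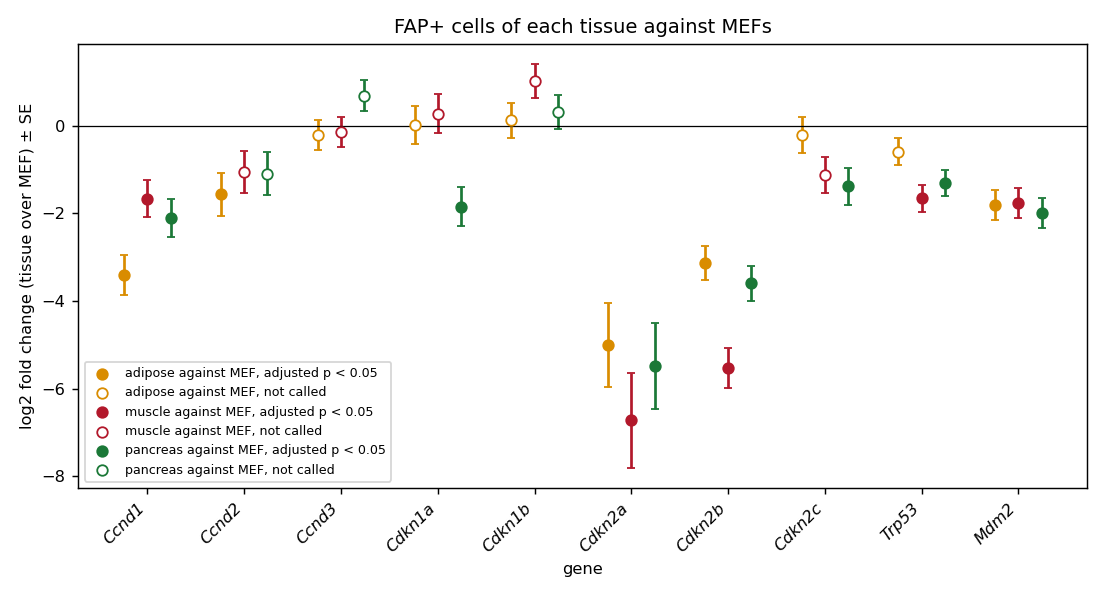
Fitted log2 fold change ± SE of adipose, muscle and pancreas over MEF for each gene (edgeR, 2 libraries a group). Here and in the text, the SE of a fold change is its absolute log2 value over the square root of the test's F statistic. Filled points have an adjusted p below 0.05 and open points do not. Cdkn2a and Cdkn2b lie lowest in every tissue except adipose, where Ccnd1 (-3.40) lies below Cdkn2b (-3.14), and no filled point lies above 0.

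Among the D cyclins, Ccnd1, which is the one most tied to growth factor signals, was lower in every tissue. It had 9.61 and 23.5 CPM in adipose, 59.3 and 51.7 in muscle and 42.7 and 38.6 in pancreas, against 142 and 209 in MEF. The groups do not overlap, and adipose is lowest. Adipose held 10.5-fold less Ccnd1 than MEF (log2 -3.40 ± 0.45, adjusted p = 0.000851), muscle 3.16-fold less (-1.66 ± 0.42, 0.0157) and pancreas 4.31-fold less (-2.11 ± 0.43, 0.00641). The adipose call held in all 19 alternative analyses, with log2 -2.90 and adjusted p = 0.000340 without adipose library 1. The muscle call was lost without muscle 1, muscle 2 or MEF 2 (lowest value -1.33 for MEF 2, adjusted p = 0.0945), and the pancreas call without either pancreas library (highest adjusted p = 0.0601). Between tissues, pancreas and muscle differed by log2 -0.45 (adjusted p = 0.792), pancreas and adipose by 1.29 (0.105) and muscle and adipose by 1.74 (0.0571). In recovered reads the values over adipose were called, at 1.00 for pancreas (adjusted p = 0.0459) and 1.34 for muscle (0.0244). Exons of Ccnd1 share 1100 bases with Lto1 on the opposite strand, and no label or header says whether the authors counted by strand, so reads of the pair cannot be told apart.

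Ccnd2 had 91.6 and 207 CPM in adipose, 209 and 215 in muscle and 175 and 239 in pancreas, against 280 and 602 in MEF. All FAP+ libraries are below both MEF libraries, which themselves differ widely. The log2 fold change was -1.56 ± 0.50 in adipose (adjusted p = 0.0320), -1.06 in muscle (0.115) and -1.09 in pancreas (0.107). Without adipose library 1 the adipose value was -1.10 (adjusted p = 0.0794), and without MEF library 2 it was -0.91 (0.206). It was also not called without any 1 of the muscle or pancreas libraries (log2 -1.57 to -1.58, adjusted p = 0.0577 to 0.0639). In the recovered reads Ccnd2 was lower in all 3 tissues (log2 -0.94, -1.06 and -0.99, adjusted p = 0.0495, 0.0323 and 0.0436). Exons of Ccnd2 share 368 and 372 bases with 2 antisense transcripts, with the same limit on strand.

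Ccnd3, the D cyclin found most widely in resting and differentiated cells, was not called in any tissue. It had 267 and 478 CPM in adipose, 371 and 412 in muscle and 767 and 619 in pancreas, against 401 and 459 in MEF. Pancreas lies above all other libraries, by log2 0.69 over MEF (adjusted p = 0.146), while adipose (-0.21, 0.638) and muscle (-0.14, 0.774) overlap MEF. Without adipose library 1 the adipose value was 0.15 and without adipose library 2 -0.70 (adjusted p = 0.0462). Without adipose library 1, the fit called Ccnd3 higher in pancreas (0.68, adjusted p = 0.0233). Exons of Ccnd3 share 361 bases with Bysl on the opposite strand.

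Which D cyclin leads depends on the authors' table. In bias-adjusted FPKM, Ccnd3 made up 70.2% and 64.9% of the summed D cyclin level in adipose, 53.7% and 56.7% in muscle and 74.9% and 66.1% in pancreas, against 43.0% and 31.9% in MEF. In RPKM, Ccnd2 led in every library, with 54.4% to 89.6%, and Ccnd3 had 0.545% to 16.3%. The share of Ccnd1 kept its order against MEF in both tables. In FPKM it was 4.09% and 5.18% in adipose, 14.0% and 11.6% in muscle and 6.78% and 6.70% in pancreas, against 24.8% and 23.6% in MEF. In RPKM it was 9.87% and 11.7%, 26.0% and 21.9%, and 21.1% and 15.5% in the same tissues, against 38.1% and 31.2% in MEF. The summed D cyclin level was 36.2 to 202 FPKM in the FAP+ libraries, against 276 and 397 FPKM in MEF.

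**Figure D3:**
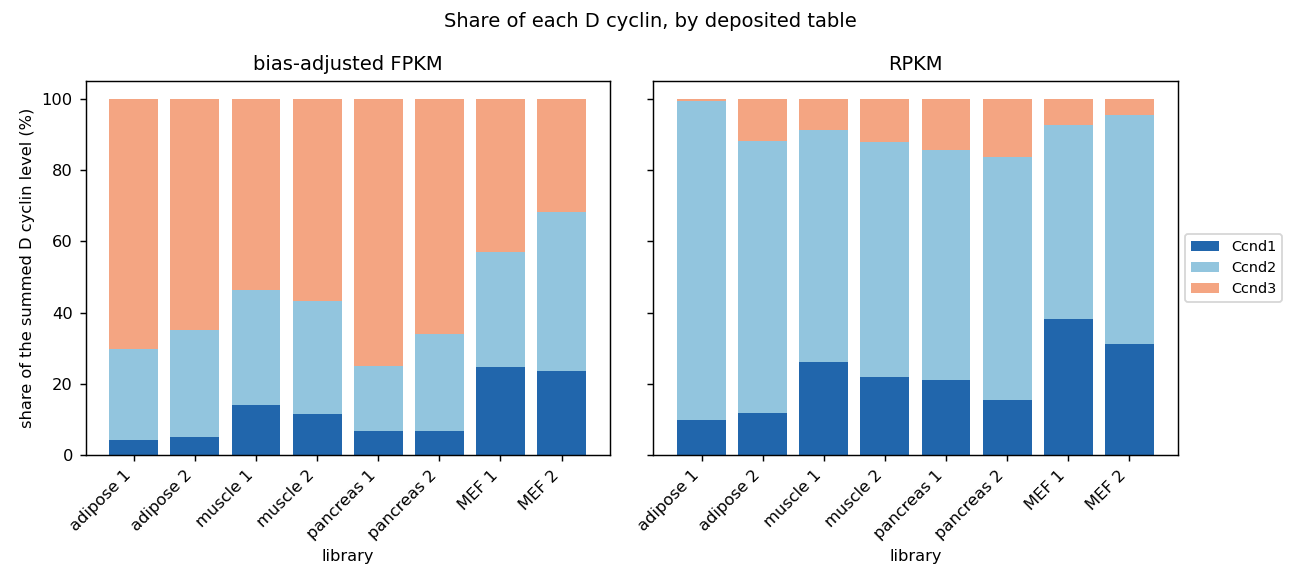
Share of Ccnd1, Ccnd2 and Ccnd3 in their summed level (%, stacked to 100) in each library, from the bias-adjusted FPKM table (left) and the RPKM table (right). The Ccnd1 share is lower in each FAP+ library than in both MEF libraries in either table, while Ccnd3 leads in the FPKM of the FAP+ libraries and Ccnd2 in RPKM.

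Of the Cip/Kip inhibitors, Cdkn1a (p21) set pancreas apart from the other tissues. It had 121 and 116 CPM in pancreas, and 408 and 453 in adipose and 562 and 469 in muscle, against 233 and 618 in MEF. The pancreas libraries are below all others, and adipose and muscle fall between the MEF libraries, which differ widely. The log2 fold change over MEF was -1.84 ± 0.45 in pancreas (adjusted p = 0.0138), 0.02 in adipose (0.977) and 0.28 in muscle (0.635). Without MEF library 2 the pancreas value was -0.97 (adjusted p = 0.0748), and it was not called without either pancreas library, where adjusted p reached 0.0939. Adipose was at 0.08 without adipose library 1 (adjusted p = 0.905). Cdkn1a took 67.1% to 91.8% of the summed FPKM of the 5 inhibitors in the FAP+ libraries, against 49.8% and 68.9% in MEF. Its exons share 273 bases with an unconfirmed transcript on the opposite strand.

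Cdkn1b (p27) was low in the fragment table, with 4.12 and 7.79 CPM in adipose, 10.7 and 11.6 in muscle and 5.37 and 8.26 in pancreas, against 4.65 and 6.37 in MEF. Only the muscle libraries lie above both MEF libraries without overlap, by log2 1.02 ± 0.39 (adjusted p = 0.0674), and adipose (0.12, 0.811) and pancreas (0.31, 0.556) were not called either. The recovered reads placed it higher in adipose (log2 1.33 ± 0.31, adjusted p = 0.00725) and muscle (0.83 ± 0.31, 0.0496), at 51.0 and 29.6 and at 27.9 and 29.2 read CPM, against 12.6 and 19.5 in MEF. Muscle was also called with the replicate number as a block (1.04, adjusted p = 0.0337), with genes under 5 CPM left out (1.10, 0.0482), in a fit to just muscle and MEF (1.05, 0.0111) and without adipose library 1 (1.00, 0.0185) or 2 (1.01, 0.0174). It was not called by the other alternatives: limma on FPKM gave 0.33 to 0.39 (adjusted p = 0.545 to 0.651), and leaving out a muscle or MEF library gave adjusted p of 0.115 to 0.311. In adipose the values had both signs, with 0.50 without adipose library 1 (adjusted p = 0.266), -0.43 without library 2 (0.344), and -0.73 to -1.03 with limma on FPKM (0.167 to 0.258), opposite to the recovered reads. Much p27 control is known to act on the protein, which RNA does not show. The Cip/Kip gene that is not a member, Cdkn1c (p57, an imprinted inhibitor), had 97.4 and 145 CPM in adipose, 489 and 508 in muscle and 347 and 486 in pancreas, against 174 and 96.5 in MEF. It rose in muscle (log2 1.88 ± 0.39, adjusted p = 0.00657) and pancreas (1.62 ± 0.39, 0.0123), and was at -0.16 in adipose (0.740), or 0.10 without adipose library 1 (0.832).

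Among the INK4 genes, Cdkn2a and Cdkn2b were lower than MEF in every tissue and Cdkn2c in pancreas. Cdkn2a had 0.915 and 0.771 CPM in adipose, 0.574 and 0 in muscle and 0.365 and 0.831 in pancreas, against 14.6 and 39.2 in MEF. Every FAP+ library was under 1 CPM, where the tissues held 31, 9 and 23 fragments in all, against 1780 in MEF. Recovered reads of Cdkn2a numbered 2 and 5 for adipose, 3 and 0 for muscle and 2 and 7 for pancreas, against 128 and 328 for MEF. The reads of each group were pooled and scaled to library size by TMM. Cdkn2a was then 45.3-fold lower in adipose (95% counting interval 21.8 to 113), 93.5-fold lower in muscle (31.8 to 455) and 31.6-fold lower in pancreas (16.5 to 69.5). These intervals cover counting error only, not the spread between libraries of a group, and amplified reads are not independent molecules. The fitted log2 fold change was -5.00 ± 0.95 in adipose (adjusted p = 0.00413), -6.72 ± 1.08 in muscle (0.00218) and -5.48 ± 0.98 in pancreas (0.00365), all called in all 19 alternatives, and -5.12 in adipose without adipose library 1 (0.00671). The size of the fitted value moves with single libraries at these counts: muscle was at -12.32 without muscle library 1, which leaves only the library at 0.

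Cdkn2b (p15, which in many cells is induced by TGF-beta) had 6.33 and 4.30 CPM in adipose, 0.574 and 1.37 in muscle and 3.86 and 3.85 in pancreas, against 49.0 and 43.9 in MEF. Muscle is lowest and no group overlaps another. Adipose held 8.79-fold less Cdkn2b than MEF (log2 -3.14 ± 0.39, adjusted p = 0.000643), muscle 46.1-fold less (-5.53 ± 0.45, 0.000119) and pancreas 12.0-fold less (-3.59 ± 0.40, 0.000439). These 3 calls held in all 19 alternatives, and the adipose value without adipose library 1 was -3.43 (0.000332). Cdkn2c (p18) differed less, with 20.1 and 10.8 CPM in adipose, 8.67 and 7.68 in muscle and 4.48 and 9.09 in pancreas, against 17.5 and 18.0 in MEF. It was lower in pancreas (log2 -1.39 ± 0.42, adjusted p = 0.0305), and at -1.12 in muscle (0.0609) and -0.21 in adipose (0.689), or -0.72 without adipose library 1 (0.160). The pancreas call was lost without muscle 1, muscle 2, pancreas 1, MEF 1 or MEF 2, where adjusted p reached 0.177. The INK4 gene that is not a member, Cdkn2d (p19Ink4d), was at -0.41 in adipose (adjusted p = 0.173; -0.52 and 0.0970 without adipose library 1), 0.34 in muscle (0.273) and -0.78 in pancreas, where it fell (0.0311).

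Trp53 and Mdm2, which encodes the ligase that degrades p53 and is itself a p53 target, both lay below MEF. Trp53 had 81.1 and 49.8 CPM in adipose, 34.1 and 28.4 in muscle and 41.1 and 38.6 in pancreas, against 87.7 and 109 in MEF. All FAP+ libraries are below both MEF libraries, with adipose library 1 close to the lower of them. It was 3.15-fold lower in muscle (log2 -1.65 ± 0.31, adjusted p = 0.00404), called in all 19 alternatives, and 2.47-fold lower in pancreas (-1.30 ± 0.30, 0.0111), a call lost without either pancreas library or MEF 2 (highest adjusted p = 0.0789). In adipose it was at -0.59 ± 0.30 (0.134), and at -0.98 without adipose library 1. It was called there in recovered reads (-1.12, 0.00223) and in each limma fit on FPKM (-1.68 to -1.75, adjusted p = 0.00115 to 0.00274). With the 1 FPKM filter the all-gene median of that comparison was -0.93. Mdm2 had 18.3 and 34.4 CPM in adipose, 25.6 and 28.9 in muscle and 20.4 and 26.1 in pancreas, against 99.5 and 85.9 in MEF. The tissues overlap each other and all lie far under MEF. Its log2 fold change was -1.81 in adipose (adjusted p = 0.00383), -1.77 in muscle (0.00479) and -1.99 in pancreas (0.00301), and -1.43 in adipose without adipose library 1 (0.00303). Of these the muscle call alone was lost in 1 of the 19 alternatives, without muscle library 1 (adjusted p = 0.0527). p53 is regulated mainly through its protein, which was not measured here.

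Between tissues, Cdkn1a and Cdkn2b were the members called. In muscle against adipose 1 member was called, where 6.12% of all genes were (2.34% higher and 3.78% lower): Cdkn2b was lower in muscle (log2 -2.39 ± 0.42, adjusted p = 0.0197). In pancreas against adipose 1 was called, beside 9.05% of all genes (3.32% higher and 5.73% lower): Cdkn1a was lower in pancreas (-1.86 ± 0.45, 0.0438). In pancreas against muscle 2 were called, beside 3.67% of all genes (1.54% higher and 2.14% lower): Cdkn1a was lower in pancreas (-2.12 ± 0.46, 0.0492) and Cdkn2b higher in pancreas (1.94 ± 0.41, 0.0489). Each of the 4 kept its direction in all 19 alternatives but was called in only 9, 8, 8 and 7 of them, in the order given. All 4 calls were lost without muscle 1, muscle 2, pancreas 1 or pancreas 2, with adjusted p of 0.0576 to 0.371; both Cdkn2b calls were also lost without either MEF library. All 4 were called by DESeq2 (adjusted p = 9.56e-06, 0.000443, 0.000111 and 0.00118) and in recovered reads (0.00962, 0.0127, 0.0245 and 0.0197). Without adipose library 1, Cdkn2b in muscle against adipose was at -2.08 (0.0212) and Cdkn1a in pancreas against adipose at -1.94 (0.0390). Epithelial markers (4 of 4 measured) summed to 69.4 and 229 CPM and pancreatic acinar and islet markers to 68.9 and 149 CPM in pancreas, where the other FAP+ groups reached at most 9.61 and 6.94 CPM. The 12 immediate-early and dissociation genes summed to 21060 and 20982 CPM in pancreas, 14609 and 17219 in adipose and 22731 and 25793 in muscle. Of these 12, the heat shock genes Hspa1a and Hspa1b were called lower in pancreas than in adipose and than in muscle, and Ier2 higher in pancreas than in adipose. The part of these in the Cdkn1a values was not tested.

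The authors' 2 kinds of values do not give the same level for every member. In libraries other than adipose 1, the log2 ratio of fragment CPM to read CPM was 2.04 to 2.70 for Ccnd3 and -1.93 to -1.33 for Cdkn1b. In adipose library 1 these ratios were 6.30 and -3.63, with 37 reads of Ccnd3 beside 3502 fragments. Mdm2 was at -2.73 there, against -1.54 to -1.12 elsewhere, and Trp53 at 1.53, against 0.51 to 0.76. Only 1 member changed sign with a call: Mdm2 in muscle against adipose was at 0.05 in fragments (adjusted p = 0.948) and at -0.89 in recovered reads (0.0268), where pancreas against adipose was also called (-0.95, 0.0147). No label or header names the program that adjusted for bias.

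**Figure D4:**
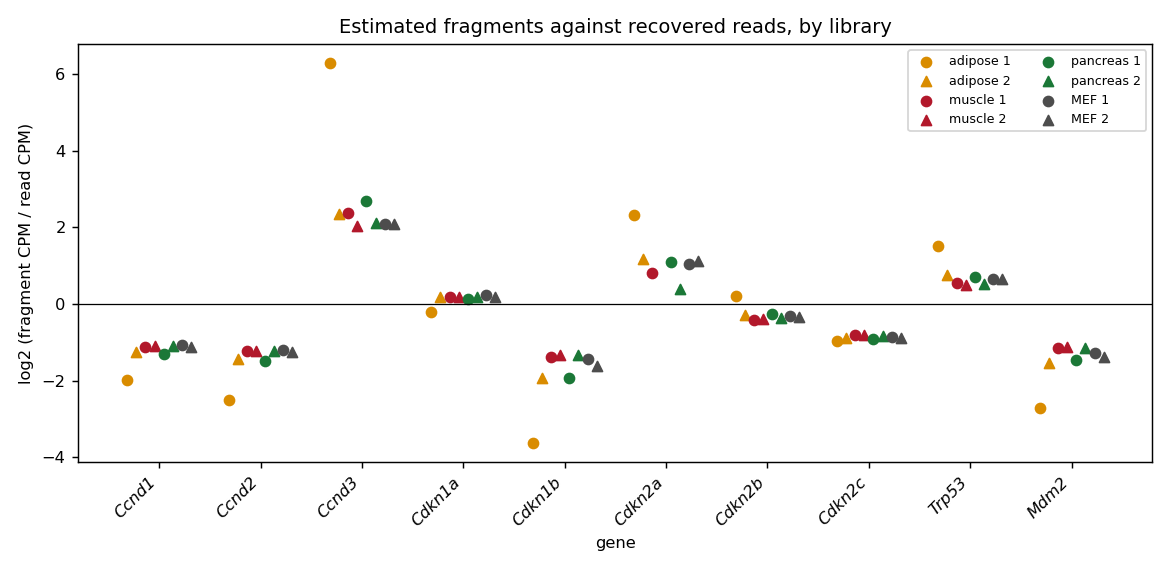
Log2 ratio of fragment CPM to recovered read CPM (vertical axis) for each gene in each of the 8 libraries; muscle library 2 has no point for Cdkn2a, which had 0 reads there. Adipose library 1 lies outside the range of the others for each gene, from 6.30 for Ccnd3 to -3.63 for Cdkn1b. For Cdkn2c it lies only just outside (-0.96, against -0.92 to -0.80).

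Other genes of the pathway were read from lists chosen with earlier results of these data known. The background for each list is the share of all genes called. In adipose, muscle and pancreas this was 26.9%, 23.7% and 23.1% higher and 23.2%, 20.0% and 19.4% lower. Of 9 further genes of G1 and S phase (kinases, E and A cyclins, Cdc25a, Cdkn1c and Cdkn2d), 0 rose and 7 fell in adipose, 1 rose and 7 fell in muscle and 1 rose and 8 fell in pancreas, with medians of log2 -3.64, -2.34 and -2.17. Ccne1 (cyclin E1, the partner of CDK2 at S phase entry) had 2.97 and 2.60 CPM in adipose, 0.829 and 1.20 in muscle and 1.20 and 0.727 in pancreas, against 48.0 and 51.8 in MEF. Its log2 fold change was -4.17, -5.59 and -5.69 in the 3 tissues. Ccna2 (cyclin A2) was at -4.61, -5.00 and -5.10, Ccne2 at -3.65, -3.52 and -4.27 and Cdc25a, a phosphatase that activates CDK2, at -3.64, -2.11 and -1.71, all called. Cdk4, the kinase partner of the D cyclins, fell by 1.99, 2.34 and 1.73. Of 18 genes of the retinoblastoma family, E2F factors and the DREAM complex, 0 rose and 8, 7 and 9 fell (medians -0.70, -0.73 and -0.93). E2f7, a repressor E2F that peaks in S phase, was at -2.98, -1.88 and -4.90, Tfdp1, the E2F dimer partner, at -2.79, -2.72 and -2.41, Rbl1 (p107) at -2.43, -2.37 and -2.53 and E2f3 at -1.91, -1.65 and -1.75. Rb1 itself was not called, with log2 values of -0.30, -0.48 and -0.91. Without adipose library 1, all 7 and 8 adipose calls of these lists were kept, with 0 higher and 7 lower in the first list and 1 higher and 9 lower in the second (medians -3.15 and -0.93); Tfdp1 was then at -2.07 and Rb1 at 0.02.

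The p53 targets did not move one way. Of 22 targets other than the members, 4 were higher and 12 lower in adipose, 4 and 12 in muscle and 5 and 13 in pancreas. The medians were log2 -1.15, -1.07 and -1.17. In all 3 tissues 10 fell and 3 rose, beside 13.5% and 16.5% of all genes. Perp, a membrane protein of cell death and adhesion, had 0.610 and 0.649 CPM in adipose, 0.191 and 0.429 in muscle and 0.521 and 0.520 in pancreas, against 20.4 and 23.3 in MEF (log2 -5.10, -6.05 and -5.38). Ccng1 (cyclin G1, which feeds back on p53) was at -4.35, -3.99 and -3.78 and the death receptor gene Eda2r at -3.51, -3.32 and -2.33. Against these, Btg2, an antiproliferative gene also known as an immediate-early gene, had 144 and 423 CPM in adipose, 248 and 448 in muscle and 188 and 277 in pancreas, against 28.8 and 30.6 in MEF (3.25, 3.55 and 2.97). Gadd45a, a stress gene that binds CDK1 and PCNA, was at 3.20, 3.42 and 2.76, and Ddb2, a DNA damage sensor, at 0.97, 1.08 and 1.10. Of 16 p53 family members and regulators, 0 rose and 3, 2 and 2 fell. That is no larger a share than among all genes, of which 23.2%, 20.0% and 19.4% were lower. Chek1 and Chek2, checkpoint kinases, were lower in all 3 tissues, as were 13.5% of all genes. The Mdm2 relative Mdm4 was at -0.50, -0.16 and -0.38, with no call. With adipose library 1 left out, 5 targets were higher and 13 lower in adipose (median -1.26), with all 16 earlier calls kept, as were the 3 of the family and regulators.

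**Figure D5:**
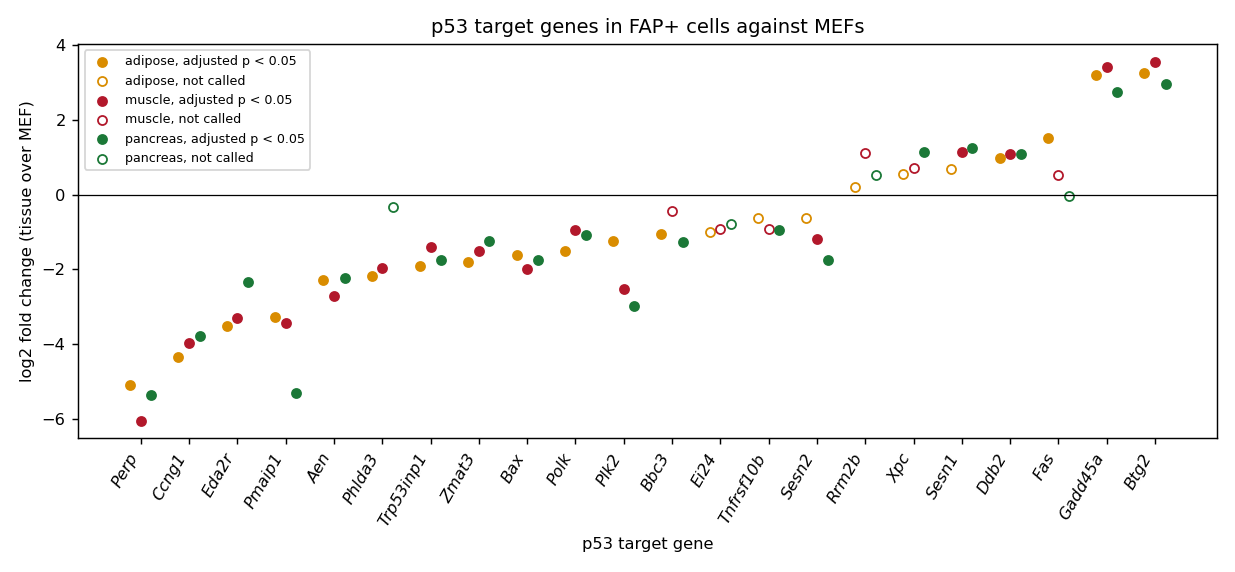
Log2 fold change of adipose, muscle and pancreas over MEF for the 22 p53 target genes that are not members, ordered by the value in adipose; filled points have an adjusted p below 0.05. Perp lies lowest in each tissue, and Gadd45a and Btg2 highest, near 3 in each tissue.

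Of 18 regulators of the INK4 locus and of p27, 4 rose and 6 fell in adipose, 4 and 7 in muscle and 5 and 7 in pancreas (medians -0.45, -0.30 and -0.88). Of all genes, 26.9%, 23.7% and 23.1% were higher and 23.2%, 20.0% and 19.4% lower. The rises lay near these shares and the falls above them. In all 3 tissues 3 rose (Cbx7, Foxo1 and Myc) and 6 fell, beside 16.5% and 13.5% of all genes. Polycomb proteins are known to silence the Cdkn2a locus, and their genes split. Cbx7, a polycomb subunit that represses this locus, had 25.5 and 18.3 CPM in adipose, 25.6 and 25.9 in muscle and 20.7 and 21.6 in pancreas, against 0.990 and 1.31 in MEF, a log2 rise of 4.24, 4.48 and 4.20 (adjusted p = 6.72e-05, 7.04e-05 and 8.16e-05). Ezh2 (-2.23, -2.69 and -2.93), Suz12 (-1.99, -1.36 and -1.69), Eed (-1.27, -0.73 and -0.95) and Bmi1 (-2.57, -2.04 and -2.36) fell in all 3 tissues. Kdm6b, the demethylase that removes the polycomb mark, rose in adipose (3.98) and muscle (3.38) and was at 2.44 in pancreas (adjusted p = 0.0619). Skp2, the ligase subunit that marks p27 for degradation, was at -4.02, -3.35 and -3.31, and Id1, a repressor of p16Ink4a, at -1.77, -3.80 and -3.62, all called. When adipose library 1 was left out, 6 of these regulators were higher and 7 lower in adipose, all 10 earlier calls were kept and the median turned to 0.13; Kdm6b was then at 4.85 and Id1 at -2.67.

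Markers of division and of tissue handling also differed between each tissue and MEF. Of 14 proliferation markers 14 fell in each tissue (13 in adipose without adipose library 1), and they summed to 101 to 203 CPM in the FAP+ libraries, against 1564 and 1570 in MEF. Of 12 immediate-early and dissociation genes 12 rose in each tissue, and they summed to 14609 to 25793 CPM, against 477 and 526 in MEF. Stromal markers (7) summed to 17090 to 40293 CPM, against 3275 and 4004 in MEF. Endothelial markers (4) summed to 189 and 260 CPM in adipose, 94.7 and 137 in muscle and 64.0 and 75.2 in pancreas, against at most 1.91 in MEF, and mesothelial markers (4) to 71.7 and 96.0 in adipose, 7.40 and 5.36 in muscle and 61.9 and 32.3 in pancreas, against 39.1 and 45.7 in MEF. Leukocyte markers reached at most 9.91 CPM in any library, adipocyte markers 11.3 and myogenic markers 18.3. Their part in the member values was not tested.

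By Pearson's r of log2 CPM over the 8 libraries, 3 genes were most like each member. For Ccnd1 they were whsc1 (0.991), nup35 and wdr59, for Cdkn2b pak1ip1 (0.991), gnpat and nxn, for Mdm2 mtpn (0.994), rtn4 and srsf7, and for Trp53 timm23 (0.992), pcbp1 and hars. For Cdkn2a they were ndufa9 (0.975), nt5dc2 and bzw2 and for Ccnd2 actn4 (0.977), cbx1 and rad50. The members with other patterns had lower values: Cdkn1a with hoxc9 (0.922), apbb2 and eif2s3y, Ccnd3 with fgd1 (0.940), zgpat and pla2g6, Cdkn2c with eny2 (0.948), slc35a2 and oxct1, and Cdkn1b with lars2 (0.972), rsf1 and pcdh7. The points share libraries, 4 groups and scaling, so these values describe likeness only. Among these genes, eif2s3y is Y-linked. The sex of the animals was not examined, and its part in the Cdkn1a values was not tested.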

How the data were processed

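Bulk RNA-seq of 8 mouse libraries in 4 groups of 2 was used; per the labels' protocols, RNA was amplified with MessageAmp before library preparation. Per the file headers, the authors deposited bias-adjusted estimated counts of fragments, bias-adjusted FPKM and, in another table, RPKM; 8 columns of each matched the samples' titles, and 6 further columns were left out. Per the submitters' processing notes, Bowtie2, TopHat2, HTSeq, edgeR and build mm9 were involved, with no roles or versions. Each RPKM value deposited by the authors was a whole number of steps of 1 read within a tolerance of 0.01 for 22599 of 22609 genes (99.96%), and gave recovered reads of 9488237 to 16792750 per library. Rounded fragments were tested in edgeR 4.0.16 (R 4.3.3; TMM, filterByExpr, all 8 libraries in 1 fit, no covariates, 4 residual degrees of freedom, biological coefficient of variation 33.2%); log2 CPM used a prior count of 2. The code was first run on simulated counts with a spread common to all genes and few genes changed. That run does not show the error rate of the test on these data. Alternatives were DESeq2 1.42.0, scaling by RLE or upper quartile, dropping the filter or asking for 5 CPM in 2 libraries, fitting just both groups at hand, a replicate block, recovered reads, limma-trend 3.58.1 on FPKM (pseudocount 1, 0.1, or 1 with at least 1 FPKM in 2 libraries), and each library left out; a lone library is then assumed to vary like the others. List genes named are up to 4 called members per list by the largest change, and Cdkn1c and Cdkn2d. The called members had 10 CPM or more in both libraries of the higher group. Cdk4, Rb1, Gadd45a, Ddb2, Chek1, Chek2, Mdm4, Ezh2, Suz12, Eed, Bmi1, Foxo1, Myc, Hspa1b and Ier2 were named after their values were seen. Most-alike genes had a mean of at least 10 CPM. The members and lists were chosen with earlier results of these data known.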

Additional observations from a re-analysis of the deposited data

Results flagged for a closer look

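4 differences between tissues within the FAP+ cells were called by a test of the difference itself. Cdkn1a was lower in pancreas than in adipose (log2 -1.86) and than in muscle (-2.12). Cdkn2b was lower in muscle than in adipose (-2.39) and higher in pancreas than in muscle (1.94). Adjusted p by edgeR's quasi-likelihood test was 0.0438, 0.0492, 0.0197 and 0.0489, with 2 libraries a group. Each was called in only some of the alternative analyses. All 4 calls were lost without either muscle library or either pancreas library.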

How the results depend on the processing

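Of the 17 member calls against MEF, 10 were made in all 19 alternatives, and all 21 calls, those between tissues included, kept their direction in each of them. Beyond the calls, 54 of 1140 member values changed sign without being called in either analysis, and 1 reversed with a call: Mdm2 in muscle against adipose was at -0.89 in recovered reads.

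Leaving out 1 library at a time gave 4 to 6 members called in adipose against MEF (7445 genes in all, 4321 to 9491), 3 to 8 in muscle (6500, 3382 to 8987) and 3 to 9 in pancreas (6310, 3506 to 8830). Between tissues it gave 0 to 5 members in muscle against adipose (908 genes, 51 to 5410), 0 to 5 in pancreas against adipose (1344, 8 to 5077) and 0 to 2 in pancreas against muscle (545, 58 to 1205). The highest counts came without adipose library 2, or for muscle and pancreas against MEF without adipose library 1 (8 and 9 members with either left out). Muscle against MEF had 3 members without muscle 1, and pancreas against MEF had 3 without pancreas 1 and 4 without pancreas 2 or MEF 2.

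Against MEF, members called were 8 in adipose with limma on log2(FPKM + 1) where genes under 1 FPKM in 2 libraries were left out, and 8 in muscle in recovered reads and in a fit to just both groups at hand, where adipose had 4588 genes called. In muscle against adipose, DESeq2 called 3 members and 1937 genes, recovered reads 3 and 1936, the fit of only these groups 0 and 74, and limma 0 members with 451 genes on log2(FPKM + 1), 363 on log2(FPKM + 0.1) and 495 with the 1 FPKM filter. In pancreas against adipose, DESeq2 called 2 members and 2304 genes, recovered reads 4 and 3235, the fit of only these groups 0 and 305, limma 0 with 836, 764 and 872 genes, and upper quartile scaling and no filter 0 members each. In pancreas against muscle, DESeq2 called 1006 genes, recovered reads 869 and the fit of only these groups 1752; members called were 1 with RLE scaling, upper quartile scaling or the 5 CPM filter, and 0 with no filter or with limma. The cause was not tested. With the 1 FPKM filter the all-gene median was log2 -0.93, -0.59 and -0.47 in the 3 comparisons with MEF, and values of FPKM fits are to be read against that.

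The replicate numbers did not pair the libraries across all groups, but adipose and pancreas deviated together in part. Deviations of libraries with the same number correlated at 0.35 for adipose with pancreas. The other values were 0.11 (adipose with muscle), -0.01 (pancreas with muscle), -0.16 (adipose with MEF), -0.07 (muscle with MEF) and 0.003 (pancreas with MEF). With the replicate number as a block, members called were 5, 6 and 7 against MEF (7202, 6428 and 6214 genes in all), 1 in muscle against adipose (732), 0 in pancreas against adipose (1147) and 0 in pancreas against muscle (471).

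With 2 libraries a group, calls rest on a spread shared by all 4 groups. Cdkn2a in tissue lies near the floor of 3 fragments (0.108 to 0.193 CPM before scaling), so order among the tissues was not detectable at this depth.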
